A study of Botryllus schlosseri with 78 samples.

Results

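The 9 libraries described here were made from ampullae of the colonial tunicate Botryllus schlosseri labelled SB825 and bear 3 further names, FX, FEA and FDA, called lines here, with 3 libraries each. They are defined by these labels and are 9 of the 77 libraries with values. The labels give vasculature cells as their cell type and name no treatment, age, time or allele, so each group is known only by its name. They do not say what FX, FEA and FDA stand for, how the lines relate to each other, or whether they share a colony with the whole-body libraries labelled SB825. The other libraries of the series come from blood, sorted cells, whole bodies, male colonies and ampullae of 2 more colonies, SMGO with 4 libraries and SMH with 3. Of these, the ampullae of SMGO and SMH and the 3 whole-body SB825 libraries are set beside the lines below.

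Botryllus colonies are sheets of genetically identical zooids that share a blood system. The ampullae are the blind, contractile ends of its vessels at the colony's edge, and it is there that neighbouring colonies touch and either fuse their vessels or reject each other with an inflammatory reaction. The choice depends on the highly polymorphic Fuhc locus, and fester and uncle fester, receptors encoded near that locus, take part in it. The table measured here holds transcripts of 4 kinds. Of these, 45 are named FF, read here as the fester family, 69 are named FcoR and are fester-related, 19 are signalling proteins and 4 are products of the Fuhc locus. None of the names is a symbol in the RefSeq annotation of the species, so no position is given.

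Each value is read as TMM-scaled TPM, that is, the abundance of a transcript relative to the rest of the library. The 9 libraries summed to between 782151 and 1000983 over all transcripts of the table, so a value is close to a share of this set and a rise in some transcripts lowers others. Such values hold no read totals, so the depth of a library cannot be given. As a rough guide, the smallest value from 1 upwards was between 35.5 and 86.9 per library, so a transcript listed at 0 may be present below that. The labels do not say whether replicates were separate pieces, colonies or RNA preparations, so p-values refer to the spread among the libraries at hand, and that spread may be technical. The table holds no marker of vessels, germline, muscle or haemocytes, and the ampullae label could not be checked.

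FX replicate 1 stood apart from the other libraries of its line. The line tests, family totals, receptor overlap and some single transcripts are therefore given with and without it. Other results for FX, such as the lack of overlap between lines, are given with it only. Whether its label is right was not tested, and each FX mean over 3 libraries includes it. Its receptor profile was closer to FEA and FDA than to FX replicates 2 and 3. Across all transcripts, Pearson's r of log2(value + 1) was 0.809 and 0.812 between FX replicate 1 and its partners, and between 0.898 and 0.935 between FX replicate 1 and the 6 FEA and FDA libraries. FX replicates 2 and 3 correlated at 0.953 with each other. These correlations are over transcripts of the same table, which are not independent. Over the signalling and Fuhc transcripts alone FX replicate 1 was not clearly nearer to either side. There r was from 0.941 to 0.963 to its partners and from 0.931 to 0.976 to the other lines. The lowest r of any pair, 0.931 and 0.941, both belonged to FX replicate 1. FX replicates 2 and 3 correlated at 0.981 with each other, and FEA with FDA libraries at 0.956 to 0.986.

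At values of 1000 or more, FX replicate 1 differed at least 10-fold from both partners in a small set of receptors, at or near 0 on one side. How far these account for its lower correlations was not tested. By the rule for naming transcripts, 10 had a value of 1000 or more on one side of FX and lay at least 10-fold apart, FX replicate 1 against both of its partners. The same comparison found 1 such transcript for FX replicate 3, FcoR41, and 0 for each of the other 7 libraries. Of the 10, FF14, FF35 and FcoR38 were high in FX replicate 1, and FF11, FF40, FF42, FcoR2, FcoR28, FcoR31 and FcoR40 were low in it. In bulk tissue, fewer cells that carry a transcript and less of it per cell cannot be told apart, nor can a gene absent from the genome be told from one that is silent.

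**Figure D1:**
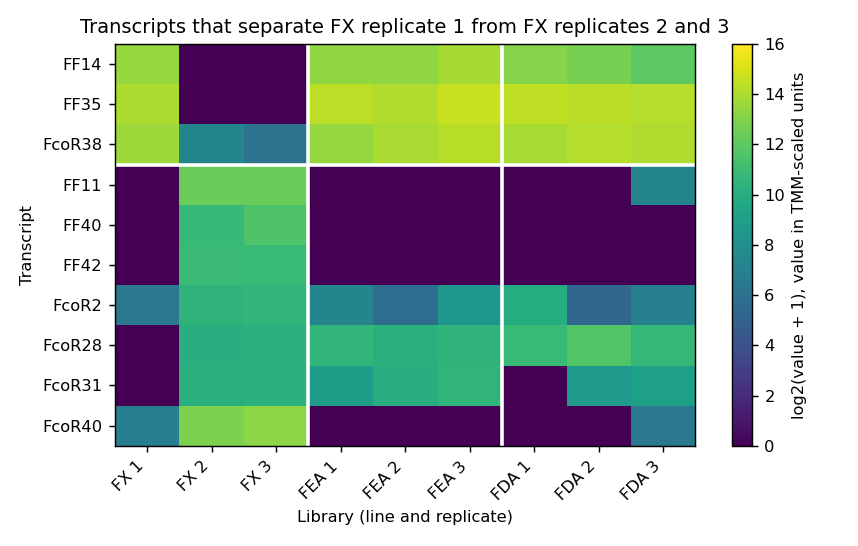
Level of the 10 transcripts that separate FX replicate 1 from its partners, as log2(value + 1) by colour, with transcripts in rows and the 9 libraries in columns. The 3 transcripts above the white line are bright in FX replicate 1 and in all FEA and FDA libraries and dark in FX replicates 2 and 3; FF11, FF40, FF42 and FcoR40 show the reverse apart from low values of FF11 in FDA replicate 3 and of FcoR40 in that library and FX replicate 1.

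FF35 had values of 16513, 0 and 0 in FX, 21814, 17516 and 26017 in FEA and 22794, 20772 and 18700.4 in FDA. It was thus listed at 0 in FX replicates 2 and 3 and among the most abundant receptors of the other 7 libraries. FF14 had 11509.9, 0 and 0 in FX, 10548, 10273 and 14492 in FEA and 8619, 6649 and 3989 in FDA, and followed the same division. FcoR38 had 13184, 159.6 and 68.1 in FX, 11378, 15770.3 and 19703 in FEA and 15253, 19012 and 17787 in FDA, so that FX replicates 2 and 3 kept a trace of it. The 3 together summed to 41206 in FX replicate 1, within the range of 40476 to 60212 of FEA and FDA, and to 159.6 and 68.1 in FX replicates 2 and 3.

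FF11 had values of 0, 5485 and 5377 in FX, 0, 0 and 0 in FEA and 0, 0 and 151 in FDA. FF40 had 0, 1672 and 3149.9 and FF42 had 0, 1914 and 1724 in FX, and both were listed at 0 in all 6 FEA and FDA libraries. FcoR40 had 115, 7482 and 9576 in FX, 0, 0 and 0 in FEA and 0, 0 and 84.4 in FDA, and was the one transcript of the table found in all 3 libraries of a line, FX, and at 0 in all 3 of another, FEA. FF11, FF40, FF42 and FcoR40 were therefore carried at levels above 1000 by FX replicates 2 and 3 only among the 9 libraries. FcoR2 had 79.3, 1359 and 1536 in FX, 156, 51.9 and 332 in FEA and 967, 41.7 and 122 in FDA, with FDA replicate 1 between the high and the low libraries.

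FcoR28 and FcoR31 were different: they set FX replicate 1 apart from nearly all libraries, not only from its line. FcoR28 was at 0 in FX replicate 1, at 1081 and 1148 in its partners and between 1146 and 3176 in FEA and FDA. FcoR31 had 0, 1127 and 1174 in FX, 507, 984 and 1399 in FEA and 0, 387 and 516 in FDA, so FX replicate 1 shared its 0 with FDA replicate 1. Of all FF, 3 were detected, at a value of at least 1, in FX replicate 1 and in neither partner (FF6, FF14 and FF35), and 3 in both partners and not in FX replicate 1 (FF11, FF40 and FF42). Of all FcoR, 4 showed the first pattern (FcoR23, FcoR34, FcoR57 and FcoR64), none of them reaching 1000, and 6 the second.

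The other transcripts were divided between its own line and the others. A value of at least 1 in 3 or more of the 9 libraries was held by 80 transcripts, 72 of them outside the 10 above. For 42 of these 72 the log2 level in FX replicate 1 was nearer to the mean of FX replicates 2 and 3, and for 30 nearer to that of FEA and FDA. It lay within the range of the 6 FEA and FDA libraries for 46 of the 72. For FF1 and FF4, described below, FX replicate 1 lay with its partners below all FEA and FDA libraries. For FF44 it lay with its partners below FDA but within the range of FEA.

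**Figure D2:**
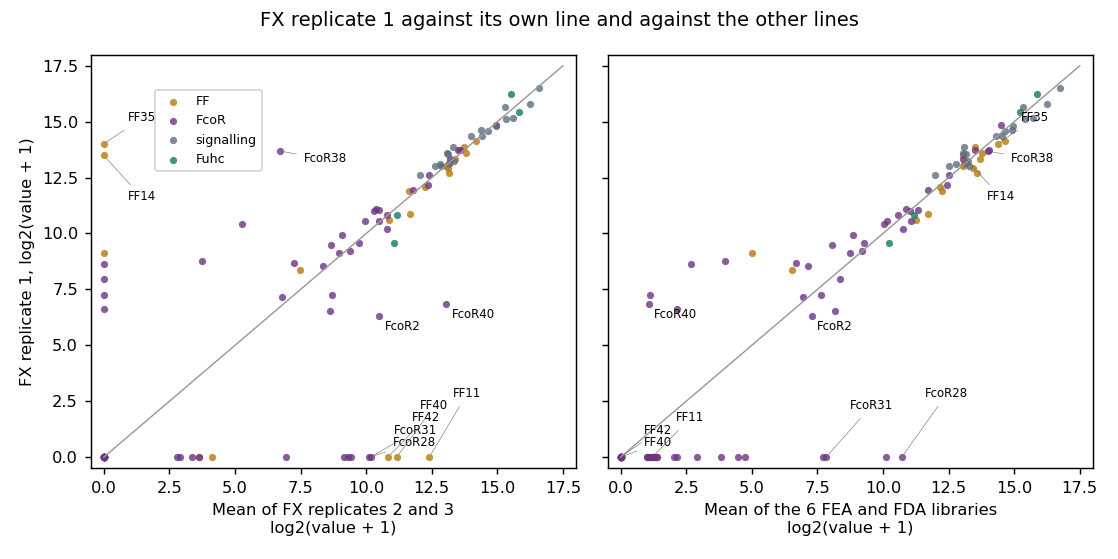
Level of each transcript of the table in FX replicate 1 (vertical axis) against the mean of FX replicates 2 and 3 (left) and of the 6 FEA and FDA libraries (right), all as log2(value + 1), coloured by family; the line marks equality. FF14, FF35 and FcoR38 lie far above the line on the left and on it on the right, while FF11, FF40 and FF42 lie at 0 in FX replicate 1 and near 0 in the other lines.

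With FX replicate 1 left out, limma found 7 of 78 transcripts (8.97%) to differ among the lines at an adjusted p under 0.05: FF11, FF14, FF35, FcoR38, FcoR40, FcoR64 and PAK1. FX replicates 2 and 3 against FEA gave 7 of 78 (8.97%), 3 higher in FX (3.85%: FF11, FcoR40 and FuHc-Sec) and 4 lower (5.13%: FF14, FF35, FcoR38 and FcoR64). For FcoR38, the limma adjusted p-value for FX against FEA was 1.90e-08. FF14, FF35 and FcoR64 were at 0 in FX replicates 2 and 3. They met the filter only through FEA and FDA, so their p-values are not given. FF11 and FcoR40 met the filter only through FX replicates 2 and 3 and a trace in FDA replicate 3. With FEA at 0 they had to differ from it, so their p-values are not given. FcoR64, a minor receptor, had 248, 0 and 0 in FX, 282, 76.1 and 428 in FEA and 665, 467 and 413 in FDA. No fold is given where a group is listed at 0, since it would depend on the pseudocount.

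FX replicates 2 and 3 against FDA gave 6 of 78 (7.69%): FcoR40 was higher (1 of 78, 1.28%), and FF14, FF35, FcoR38, FcoR64 and PAK1 were lower (5 of 78, 6.41%) in FX. For FcoR38, with values above 0 throughout, the log2 difference was -7.18 ± 0.35 SE from FEA and -7.36 ± 0.35 SE from FDA. FF40 and FF42 were seen in 2 libraries and could not enter under the filter of 3. When the filter was lowered to 2 libraries, an alternative chosen after seeing the data, 10 of 87 (11.5%) passed among the lines. The 3 added, FF40, FF42 and FcoR21, were at 0 in the other 7 libraries and met that filter only through FX replicates 2 and 3, so they had to differ and their p-values are not given. FX replicate 1 was left out with its values known, so these calls and the p-value of FcoR38 describe the 8 remaining libraries. They are no independent test of the division.

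In the other 68 libraries receptors of the 2 sets differed in how often they were found, and some were found together. FF35 was listed at 0 in all 68. FcoR38 was found in 23 of the 68 and reached at most 1402, against at least 11378 in the 7 SB825 ampullae libraries that carry it. FF14 was found in 29 of the 68, with a mean of 27238 in SMGO ampullae (the technical pair counted as 1), 16523 in whole-body SB825 and 32423 in whole bodies of the colony SKI. It was at 0 in all ampullae and whole bodies of SMH, in blood, in the cells sorted by integrin alpha-6 and in the male colonies M001 and MDR. On the other side, FF11 was found in 10 of the 68, at 42343 to 47106 in whole-body SKI, which thus held both FF11 and FF14. It was also found in 3 of 5 libraries of vascular cells labelled BSA, up to 18327, and in 3 of 4 of SMGO ampullae, up to 590. FF14 was found in 4 of 5 and 4 of 4 libraries of these groups. FF40 was seen in 3 of the 68 libraries, with a highest value of 15873 in sorted cells, and FF42 in 3, with a highest value of 452 in SMGO ampullae. FcoR40 was seen in 14, up to 4023, among them all 4 of SMGO ampullae, up to 1911.

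Beside these few, the 9 libraries shared most of their abundant receptors. Of the 45 FF, 12 were detected in all 9 libraries: FF1, FF2, FF4, FF5, FF8, FF12, FF13, FF15, FF16, FF17, FF19 and FF44. Another 20 were at 0 in all 9, and 13 were found in 1 to 8 libraries, of which 5 exceeded 1000 in any library, namely FF11, FF14, FF35, FF40 and FF42. Of the 69 FcoR, 24 were detected in all 9, 15 in none and 30 in 1 to 8, with 24 of the 30 never above 1000. All 19 signalling and 4 Fuhc transcripts were detected in all 9. A library held 15 to 19 FF and 33 to 41 FcoR.

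**Figure D3:**
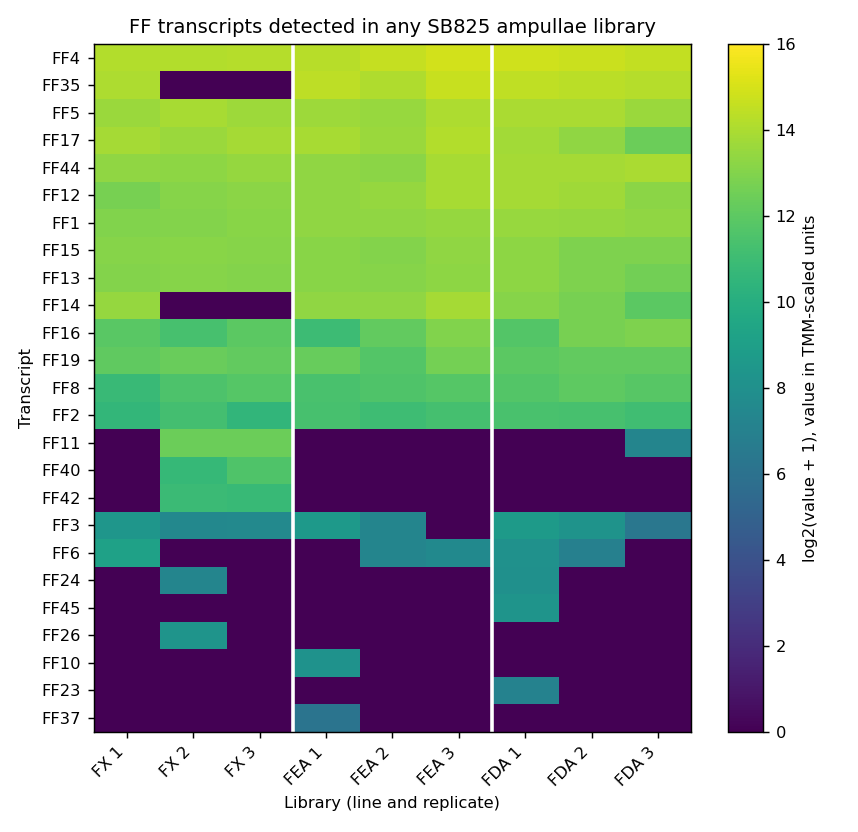
Level of the 25 FF transcripts detected in any of the 9 libraries, as log2(value + 1) by colour, ordered by their mean over the 9 libraries. The upper rows are bright in every library except FF35 and FF14, which are dark in FX replicates 2 and 3, and the lower rows are dark apart from FF11, FF40 and FF42 in those libraries and scattered low values.

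FF4 had the highest FF mean, with values of 17984, 18524 and 18755 in FX, 19896, 24449 and 30364 in FEA and 29239.8, 27162 and 23803 in FDA. FF5 had 12318, 15562 and 13190.0 in FX, 13093, 11884 and 16402 in FEA and 15705, 15717 and 12338 in FDA, with all 3 lines overlapping. FF17 had 14773, 12446 and 14705 in FX, 15063, 12430.2 and 18114 in FEA and 14270.3, 10271 and 5343 in FDA, and FDA replicate 3 was the lowest of the 9. FF44 had 10250.4, 10100.2 and 11153 in FX, 10578, 9389 and 15281 in FEA and 14980.5, 14869 and 15795 in FDA, so that FDA lay above FX and overlapped FEA.

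Among the FcoR, FcoR72 was the most abundant in every library but FEA replicate 3, with 29156, 33993 and 28649 in FX, 26398, 30643 and 22551 in FEA and 18329, 21376 and 22786 in FDA. FX and FDA did not overlap in it. FcoR48 had 13742, 9335 and 16047 in FX, 15416, 12406 and 24505 in FEA and 15885, 19586 and 15078 in FDA, FcoR39 had 13698, 11354 and 11884 in FX, 8069, 12855 and 13288 in FEA and 12848, 11749.5 and 11762 in FDA, and in both the lines overlapped. FcoR12 was the steadiest FcoR, with 10215, 9565 and 9147 in FX, 9001, 8393 and 9548 in FEA and 7803, 7918 and 8175 in FDA. The ratio of the highest to the lowest library had a median of 1.77 over the 12 FF and 3.22 over the 24 FcoR found in all 9 libraries, from 1.31 for FcoR12 to 289 for FcoR38, against 1.63 over the 19 signalling transcripts.

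The 3 lines were then compared over all transcripts with all 9 libraries. Of 80 tested (17 FF, 40 FcoR, 19 signalling and 4 Fuhc), limma's F test called 1 (1.25%), and 13 had an unadjusted p under 0.05. The 1 was PAK1, a kinase activated by Rac and Cdc42 that acts on the cytoskeleton in other animals. Between FX and FEA, limma called 0 of 80 (0%), with 10 at an unadjusted p under 0.05. Between FX and FDA it called 1 (1.25%), and between FEA and FDA 1 (1.25%), both PAK1, with 17 and 8 at an unadjusted p under 0.05.

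PAK1 had values of 8416, 8425 and 6582 in FX, 7909, 7496 and 7289 in FEA and 13441, 11619.9 and 14273 in FDA. The 3 FDA libraries lay above all 6 others, and FX and FEA overlapped. Line means were 7808 ± 1062 in FX, 7565 ± 315 in FEA and 13111 ± 1357 in FDA (SD, n = 3 each). The log2 difference was -0.75 ± 0.14 SE for FX against FDA (limma adjusted p = 0.039) and -0.79 ± 0.14 SE for FEA against FDA (limma adjusted p = 0.028). FX and FEA differed by 0.04 ± 0.14 SE. Without FX replicate 1 the difference of FX from FDA was -0.81 ± 0.17 SE (limma adjusted p = 0.00976). The limma adjusted p of the F test was 0.0414, and ranged from 0.00713 to 0.253 over the alternatives; it missed 0.05 with each library rescaled to the same sum (0.115), with the replicate block (0.103) and when any 1 library other than FX replicate 1 or FEA replicate 3 was left out, up to 0.253 without FDA replicate 1. As a share of the library, PAK1 was 0.987, 1.05 and 0.758 percent in FX, 0.929, 0.958 and 0.728 percent in FEA and 1.36, 1.19 and 1.56 percent in FDA, with FDA still above the other lines in all 3 libraries.

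**Figure D4:**
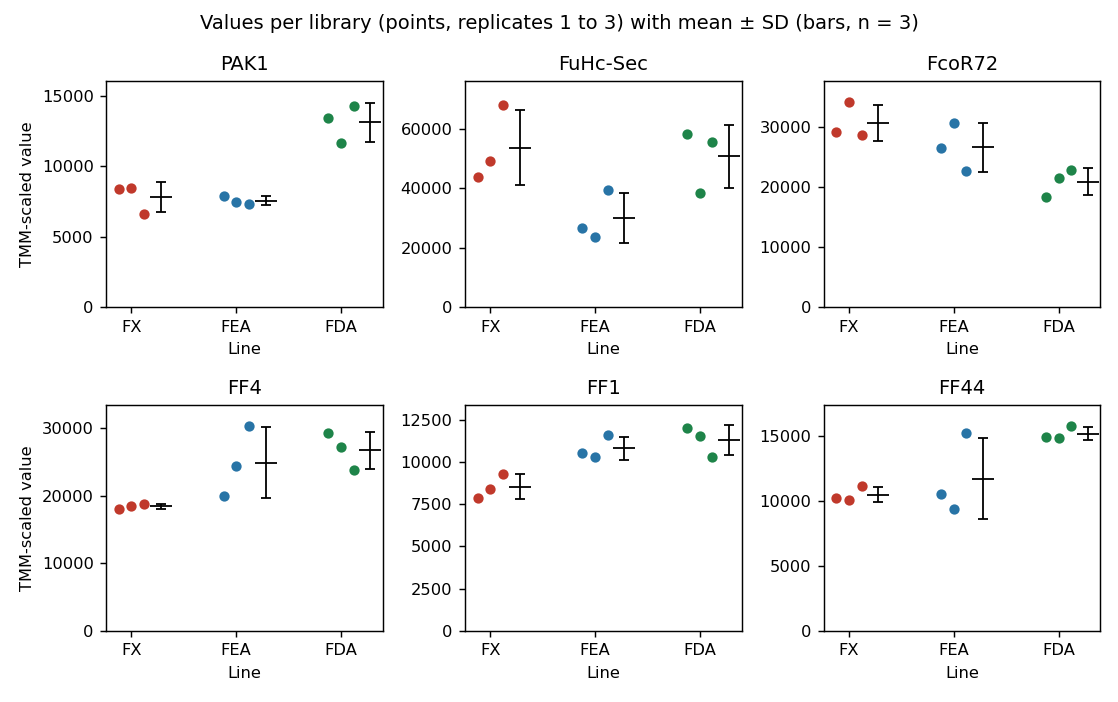
TMM-scaled values of PAK1, FuHc-Sec, FcoR72, FF4, FF1 and FF44 in each of the 9 libraries by line (points), with the mean ± SD of each line (bars, n = 3); axes start at 0. PAK1 in FDA lies between 11619.9 and 14273, above every FX and FEA library, and FuHc-Sec in FEA lies below every FX library.

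Other FF transcripts differed less, and none passed the threshold with all 9 libraries. FF1 had 7889, 8417 and 9311 in FX, 10529, 10305 and 11577 in FEA and 12025, 11544 and 10316 in FDA, and all 3 FX libraries lay below the other 6. Its log2 difference was -0.34 ± 0.12 SE for FX against FEA and -0.40 ± 0.12 SE for FX against FDA, with limma adjusted p of 0.238 and 0.142. For FF4 all 3 FX libraries were again below the other 6, with differences of -0.41 ± 0.16 SE and -0.53 ± 0.16 SE (limma adjusted p = 0.332 and 0.142). The differences of FX from FEA without FX replicate 1 were -0.29 ± 0.15 SE for FF1 and -0.40 ± 0.19 SE for FF4. Those of FX from FDA were then -0.35 ± 0.15 SE for FF1 and -0.52 ± 0.19 SE for FF4. FF12 had 6613, 8737 and 9728 in FX, 10360.1, 11171 and 15589 in FEA and 14510.0, 13736 and 9667 in FDA, with FX below FEA throughout and FX replicate 3 just above FDA replicate 3.

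Over the FF as a group, 15 of 17 differences of FX against FEA were below 0, with a median of -0.18, beside 50 of 80 and a median of -0.04 over all transcripts. Against FDA, 11 of 17 FF were below 0, with a median of -0.47, beside 44 of 80 and a median of -0.07. With each library rescaled to the same sum, the counts were 12 and 10 of 17, and the medians -0.13 and -0.28, beside 38 and 35 of 80 and medians of 0.01 and 0.12 over all transcripts. For FX replicates 2 and 3 alone the counts were 12 of 17 against either line, with medians of -0.15 and -0.35, beside 50 and 45 of 78 and medians of -0.09 and -0.09. The share of FF below 0 against FEA was then near that of all transcripts. For FEA against FDA the FF median was -0.06 as deposited and 0.07 after rescaling, and has no stable direction. The FcoR had medians of -0.10, 0.01 and 0.04 in FX against FEA, FX against FDA and FEA against FDA.

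FcoR72 had line means of 30599 ± 2949.7 in FX, 26531 ± 4047 in FEA and 20831 ± 2278 in FDA (SD, n = 3 each). The log2 difference of FX from FDA was 0.56 ± 0.15 SE (limma adjusted p = 0.142), and 0.59 ± 0.18 SE without FX replicate 1 (limma adjusted p = 0.0788). It made up 27.6% of the FcoR total in FX, 22.2% in FEA and 18.4% in FDA. FcoR63 had 3925, 2974 and 4246 in FX, 3943, 3525 and 5657 in FEA and 3138, 2445 and 2239.7 in FDA, with FDA below FEA in every library (log2 difference of FEA from FDA 0.73 ± 0.25 SE, limma adjusted p = 0.359). FcoR65 had 406, 169 and 136 in FX, 386, 662 and 316 in FEA and 0, 89.3 and 156 in FDA, with the same order of these lines.

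Values did not overlap between FX and FEA for 7 of 80 transcripts (8.75%), between FX and FDA for 18 (22.5%) and between FEA and FDA for 11 (13.8%). If line made no difference, a transcript without ties would separate 3 from 3 libraries with a probability of 0.1. The shares for FX with FEA and for FEA with FDA were near that. The share for FX with FDA was higher, but the transcripts are not independent. A lack of overlap in a single transcript is therefore weak evidence of a line difference. For FX and FEA these were FcoR40 and FuHc-Sec, higher in FX (2.5%), and FF1, FF4, FF12, FF35 and FcoR4, lower in FX (6.25%). Among the 18, FX was higher in 6 (7.5%), FcoR1, FcoR12, FcoR40, FcoR72, Raf and Sos, and lower in 12 (15%), FF1, FF4, FF35, FF44, FcoR10, FcoR28, FcoR38, FcoR64, the yes-like kinase, Grb2, PAK1 and Shc. FF35 and FcoR38 are in these lists although FX replicate 1 carries them, because even its value lay below the lowest of the line compared.

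The signalling proteins include those that, in other animals, pass on signals from immune receptors with tyrosine-based motifs. Src-family kinases, to which yes belongs, phosphorylate such motifs, SYK binds them and activates others, PLC-g and PI3K act on membrane lipids, and SHP2 is a phosphatase. The yes-like kinase had 25456, 19005 and 24288 in FX, 30524, 19429.6 and 32864 in FEA and 39692, 29731 and 37636 in FDA, and all FDA libraries lay above all FX libraries. SYK had 8270.2, 6968 and 5709 in FX, 7703, 5609.9 and 7101 in FEA and 6087, 4639.8 and 4663 in FDA, PLC-g had 6220.2, 4785 and 3817 in FX, 4656, 3974 and 4943 in FEA and 5121, 2496 and 3822 in FDA, and in neither did the lines separate.

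PI3K ranged over the 9 libraries between 14615 and 23229 and SHP2 between 7812 and 10384, with all lines overlapping in both. Raf, the first kinase of the cascade through MEK to ERK, had 9794, 11451 and 9323 in FX, 11990.5, 10420.5 and 11209 in FEA and 9082, 8892 and 7712 in FDA, with FDA below FX and FEA in every library. Its log2 difference of FEA from FDA was 0.39 ± 0.13 SE (limma adjusted p = 0.359). NFAT, a calcium-regulated transcription factor, had 14737, 12844 and 8025 in FX, 13328, 14545 and 7905 in FEA and 8743, 5184 and 6638 in FDA, the widest range of the 19 with a ratio of 2.84. PKC, a lipid-activated kinase, had 12478, 9309 and 8162 in FX, 11079.5, 9224 and 9489 in FEA and 8751, 6018 and 6995 in FDA, and FDA lay below FEA. With all 9 libraries, PAK1 was the only one of the 19 signalling transcripts to pass in a contrast, and the medians of the 19 were -0.0042, -0.12 and -0.07 on the log2 scale for FX against FEA, FX against FDA and FEA against FDA.

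The small GTPases and their adaptors were the most abundant signalling transcripts. Ras had 93336, 94818 and 104722 in FX, 112037, 71902 and 112577 in FEA and 143108, 141949 and 101793 in FDA. Rac, which activates PAK1 in other animals, had 57412, 76302 and 79629 in FX, 68989, 61305 and 91883 in FEA and 84523, 101396 and 71334 in FDA, and Grb2, the adaptor that links receptors to Ras, had 36646, 46823 and 51398 in FX, 46079, 41331 and 59156 in FEA and 64729, 62991 and 56311 in FDA. FDA was above FX in every library for Grb2, while the lines overlapped for Rac and Ras.

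The Fuhc locus products were present in every line. FuHc-Sec, the predicted secreted product, had 43859.6, 49329 and 68262 in FX, 26757, 23720.1 and 39451 in FEA and 58373, 38641 and 55525 in FDA. All FEA libraries lay below all FX libraries, and FEA replicate 3 lay above FDA replicate 2. The log2 difference was 0.85 ± 0.25 SE for FX against FEA (limma adjusted p = 0.238) and -0.77 ± 0.25 SE for FEA against FDA (limma adjusted p = 0.359). Without FX replicate 1 the first was 0.99 ± 0.27 SE and passed (limma adjusted p = 0.0426), but not with the filter lowered to 2 libraries (limma adjusted p = 0.0948).

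FuHc-Tm, the predicted membrane product, was far lower, with 765, 2014 and 2318 in FX, 1271, 1350.3 and 2099 in FEA and 519.8, 1250.3 and 1297 in FDA, and its lines overlapped. BHF, a candidate for the gene that decides fusion, had 78107, 40664 and 53950.0 in FX, 47878, 65816 and 54509 in FEA and 63981, 61259 and 70348 in FDA, with the highest and the lowest values both in FX. HSP40L, which resembles HSP40 chaperones, ranged between 1811 and 3038. FX replicate 1 was the lowest of the 9 for HSP40L and the highest for BHF.

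The FF together made up 14.3 ± 0.695% of the library sum in FX, 17.8 ± 1.02% in FEA and 15.7 ± 1.21% in FDA (SD, n = 3 each). Per library the FF share was 15%, 14.3% and 13.6% in FX, 16.8%, 17.6% and 18.9% in FEA and 16.8%, 15.9% and 14.4% in FDA, so FX lay below FEA throughout and overlapped FDA. The FcoR made up 13.2 ± 0.227%, 13.9 ± 0.649% and 11.8 ± 0.817%, with all FDA libraries below all FX and FEA libraries. The signalling and Fuhc transcripts made up the remaining 72.5 ± 0.852%, 68.3 ± 1.41% and 72.5 ± 0.542%, with all FEA libraries below all others. Among the lines, the shares differed by the exact permutation test of the F statistic, with p = 0.0143 for FF, 0.00714 for FcoR and 0.0357 for the remaining transcripts, where the smallest p possible is 0.00357. Without FX replicate 1 the exact permutation p-values were 0.0429, 0.0179 and 0.0214.

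On the scale as deposited, no family total passed. For FF it was 120061 ± 6671 in FX, 156639 ± 27975 in FEA and 151254 ± 17590.5 in FDA (SD, n = 3 each; exact permutation p = 0.0857). The FX total was 0.773 of that of FEA and 0.797 of that of FDA, each with no overlap and a two-sided exact permutation p of 0.1, the smallest that 3 against 3 libraries allow. The FcoR total was 111418 ± 5976, 121935 ± 14942 and 113227 ± 4711 (exact permutation p = 0.525). Leaving out FX replicate 1, the exact permutation p-values were 0.143 for FF and 0.5 for FcoR. On this scale, the total of the FF outside the division described above was also lower in FX, at 99535, 105709.8 and 107595, against 110828, 110139.6 and 148291 in FEA and 135479, 127239 and 109368 in FDA. The mean library sum was also lowest in FX, at 840994, against 878017 in FEA and 960075 in FDA. As a share of the library sum, this remaining FF total in FX overlapped that of both other lines. FF14 and FF35 gave 28022 to FX replicate 1, while FF11, FF40 and FF42 gave 9070.4 and 10251 to FX replicates 2 and 3.

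**Figure D5:**
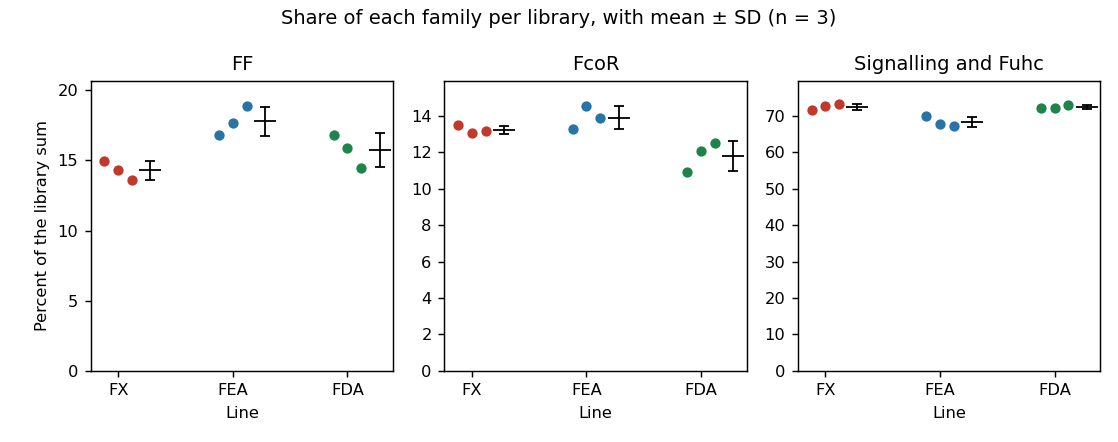
Share of the library sum, in percent, held by the FF, by the FcoR, and by the signalling and Fuhc transcripts together, per library (points) and as mean ± SD of each line (bars, n = 3); axes start at 0. FX has the lowest mean FF share at 14.3% and FDA the lowest mean FcoR share at 11.8%.

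A greater overlap of receptor sets within lines than between them was not detected. The Jaccard index, the share of receptors detected in either of 2 libraries that are detected in both, averaged 0.768 within and 0.757 between lines (difference 0.0112, one-sided exact permutation p = 0.282). Without FX replicate 1 the means were 0.796 and 0.752 (difference 0.0433, one-sided exact permutation p = 0.0607). FX replicate 1 averaged 0.672 with its partners and 0.774 with FEA and FDA. For FF alone these were 0.652 and 0.916. For FcoR alone they were close, at 0.683 and 0.717, the latter from 0.644 to 0.763 over single FEA and FDA libraries. FX replicates 2 and 3 shared 0.86 with each other and 0.712 with FEA and FDA. FEA and FDA libraries shared 0.806 with each other and 0.785 within their lines.

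Against the ampullae of SMGO and SMH, with each line or colony as 1 mean, limma called 27 of 103 transcripts (26.2%), 8 higher (7.77%) and 19 lower (18.4%) in the SB825 lines. The higher ones were 2 of 26 FF (FF1 and FF5) and 6 of 54 FcoR (FcoR7, FcoR33, FcoR39, FcoR48, FcoR67 and FcoR68). The lower ones were 7 FF, 9 FcoR and 3 signalling transcripts (Rac, ERK and Shc). The count was 25 without FX replicate 1, and averaging the values before taking logs gave 10 higher and 11 lower. With 2 colonies on one side, the test cannot tell what SMGO and SMH share from what the lines share. The labels do not say whether the lines are separate colonies. If they share a colony, the line means are not independent units and the p-values cannot be taken at face value. The calls include FcoR68, FF7, FF28 and FcoR18, each at 0 throughout one side and entered only through the other. FF5, FcoR39 and FF10, at 0 in most libraries of one side, likewise entered only through the other.

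SMGO ranges here count the technical pair as 1 by its mean. FcoR39 lay between 8069 and 13698 in the 9 libraries, between 0 and 77.7 in SMGO ampullae and at 0 in SMH ampullae. FF5 lay between 11884 and 16402 in the 9 libraries, between 0 and 129 in SMGO (up to 191 in a single library) and at 0 in SMH. FcoR68 lay between 529 and 1862 and was at 0 in every SMGO and SMH ampullae library. FcoR39, FF5 and FcoR68 entered the test only through the lines, so no p-value is given for them. All 3 were present in FX replicate 1 as in its partners. Among transcripts at 0 in all SMGO and SMH ampullae, FF35 and FcoR68 were the only ones with a mean above 1000 over the 9 libraries, and the next, FcoR52, had 156.

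In the other direction, FF10 was at 0 in 8 of the 9 libraries and at 281 in FEA replicate 1, against 54445 and 66935 as lowest and highest in SMGO and 36306 and 43918 in SMH ampullae. FcoR18, FF7 and FF28 were at 0 in all 9, and reached 22079.8, 4478 and 3382 in the other ampullae. These and FF10 entered the test only through SMGO and SMH, so no p-value is given for them. FF2 was present throughout, between 1465 and 2711 in the lines, 27057 and 28672 in SMGO and 15026 and 17099.6 in SMH, a log2 difference of -3.28 ± 0.36 SE (limma adjusted p = 0.00537). Rac was lower in the lines by a log2 difference of -0.88 ± 0.10 SE (limma adjusted p = 0.00537). Rescaling each library to the same sum moved the median over all transcripts by 0.34, ERK and Shc then missed the threshold, and the difference of Rac was -0.53 and still passed (limma adjusted p = 0.00276).

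PAK1 set beside the other groups was at 14783 ± 1354 in SMGO ampullae, 15166 ± 1797 in SMH ampullae and 16063 ± 623 in whole-body SB825 (SD, n = 3 each, the technical SMGO pair counted as 1). The FDA mean was thus the nearest of the 3 lines to them. In whole-body SB825, FF4, FF5, FF35, FcoR38, FcoR39 and FcoR68 were listed at 0 in all 3 libraries, although FF4, FF5, FcoR39 and FcoR68 were detected in every SB825 ampullae library. FF24 was the reverse, with a mean of 43081 in whole-body SB825 and at most 256 in the 9. The overlap of receptor sets with whole-body SB825 averaged 0.538, beside 0.516 with SMGO ampullae, 0.525 with SMH ampullae and 0.597 with whole-body SKI.

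Fuhc products also differed in level between these ampullae and whole-body SB825, with no test made since the relation of the colonies is not given. FuHc-Sec averaged 10097 ± 1485 in whole-body SB825 (SD, n = 3), below every ampullae library of the lines. FuHc-Tm averaged 19202 ± 4236 there, above every ampullae library of the lines, of which the highest had 2318. In SMGO and SMH ampullae FuHc-Tm averaged 172 and 372.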

How the data were processed

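RNA sequencing of 9 SB825 ampullae libraries was analysed from 1 table of transcripts. The tools named per the submitters' processing notes are kallisto, RSEM and Trim Galore; versions are not given in the sources used here. The authors deposited signal values, read here as TMM-scaled TPM: the table's name states TMM, and TPM is inferred. Of 158 columns, 77 matched a library, and 81 were not used because no label describes them. Libraries were grouped by their titles.

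Values were analysed as log2(value + 1). A transcript was tested where at least 3 of the 9 libraries had a value of at least 1. The 3 lines were compared with limma 3.58.1 in R 4.3.3 (trended variance, F test and 3 contrasts, no replicate block, Benjamini-Hochberg adjustment within each test, threshold 0.05), and tested on simulated data. SB825 lines were compared with SMGO and SMH ampullae on 1 mean per line or colony, with the 2 SMGO libraries named technical averaged. Totals and the Jaccard index were compared with exact permutation tests over all 1680 assignments of libraries to lines. FX replicate 1 was described without a test. Python 3.11.15 was used with pandas 2.3.3, scipy 1.17.1, matplotlib 3.10.9 and numpy 2.4.6.

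Transcripts were named by a rule: those past the threshold, up to 10 per comparison, or the 10 with the smallest p where fewer than 5 passed; the 5 most abundant FF, FcoR and other transcripts; those at 1000 or more and 10-fold apart between FX replicate 1 and both partners; those present throughout one line and at 0 throughout another; the Fuhc products; SYK, PLC-g, PI3K, SHP2 and the yes-like kinase; and those at 0 in either the SB825 or the other ampullae. Other names were chosen after their values were seen. The members, lists and rule were chosen with earlier results of these data known. Lists of markers for vessels, germline, muscle and haemocytes matched no transcript. Alternatives were pseudocounts, filters, rescaling to a common sum, untrended variance, a replicate block, a fit with SMGO and SMH ampullae, and leaving out each library.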

Additional observations from a re-analysis of the deposited data

How the results depend on the processing

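The 1 call among the 3 lines, PAK1, was lost (0 calls) with a pseudocount of 100, no filter on low values, either rescaling (to a sum of 1000000 or to the signalling and Fuhc sum), the replicate block or an untrended variance; 2 transcripts (FcoR40 and PAK1) were called in the fit with SMGO and SMH ampullae. For FX against FDA the count went from 1 to 0 with no filter, either rescaling, the replicate block or an untrended variance, and to 2 in the fit with the other ampullae. For FEA against FDA it went to 0 with either rescaling, the replicate block or an untrended variance. For FX against FEA it went from 0 to 1 (FcoR40) in the fit with the other ampullae.

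Leaving out 1 library gave 0 to 7 calls among the lines, 0 to 7 for FX against FEA, 0 to 6 for FX against FDA and 0 to 1 for FEA against FDA. The highest counts of the first 3 came without FX replicate 1; without FX replicate 2 or 3 there were 0 among the lines, and without FEA replicate 3 there were 2 (FF44 and PAK1). With the filter also lowered to 2 libraries, chosen after seeing the data, the counts were 10, 9 and 10, and FuHc-Sec no longer passed for FX against FEA. The cause of these shifts was not tested.

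The labels do not pair the libraries by replicate number. Same-numbered deviations from the line means correlated from -0.151 to 0.463, over 0.1 in 5 of 9 pairs, among them all 3 of FX with FDA (0.208 to 0.463), and 6 of 9 libraries correlated best with their own number, a hint from the data of shared numbers. Not every pair was over 0.1, so the fit without the replicate block was kept.

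After rescaling to a common sum, the F statistic of the totals was 9.19 for FF, 8.64 for FcoR and 17.0 for the remaining transcripts, past the threshold in each (8.85, 7.22 and 18.1 with FX replicate 1 also left out, chosen after seeing the data). For the remaining transcripts as deposited it was 1.89 to 11.4 with 1 library left out, past the threshold without FEA replicate 3. The difference in receptor-set overlap was -0.00369 to 0.0433 with 1 library left out, below 0 without FEA replicate 3 (-0.00369) or FX replicate 3 (-0.00263). The count against SMGO and SMH ampullae stayed between 21 and 31.

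Over single transcripts and settings, 1409 kept their side of the threshold, 41 newly passed and 44 no longer did. Depth is unknown, so a value listed at 0 does not show that a transcript is absent.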
